A study of Mus musculus with 12 samples.

Results

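The genes described here are 33 imprinted genes of the mouse, among the 54232 genes of a table of RNA sequencing counts from B16F10 cells, a melanoma line of the C57BL/6 strain. They were chosen by the counts of H19, which had none in any cultured library and many in cells sorted from tumors, and each member symbol was matched to 1 Ensembl identifier of the table. The comparison of Tumor with cultured cells is therefore given for all members as a description, with levels, differences and which members the fit of all genes called, and nothing is read from those calls. The comparisons among cultured cells carry their tests. The 12 libraries form 4 groups of 3, and every label, also those of cultured cells, gives C57BL/6 and an age of 6 weeks. The methods of the study give older mice for all experiments. WT was untreated B16F10 in culture. The relapsed lines ITF1, Rel and ITM were B16F10 cells sorted from subcutaneous tumors that had relapsed after immunotherapy. They were then grown to confluency in culture. Their titles differ, and each is treated here as a line, but whether they came from separate tumors is not established. Lyso was cultured B16F10 incubated with granules secreted by T cells, and the study does not settle whether these are lysosomes. The incubation took 48 hours according to the labels, whereas the methods of the study give a shorter time. Tumor 1, 3 and 4 were B16F10 cells sorted from relapsed tumors, with RNA taken at once. No untreated tumor is among the 4 groups, so growth in the mouse, immunotherapy and sorting cannot be told apart in the Tumor libraries. The labels do not say whether WT and Lyso libraries came from separate cultures or whether Tumor libraries came from separate mice, so the spread between libraries may be technical.

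Imprinted genes are expressed mainly from the chromosome of 1 parent, a choice set by DNA methylation laid down in the germ line and kept through cell division. Most lie in clusters that share a control region, in which protein-coding genes are often read from one parental chromosome and long non-coding RNAs from the other. Many are active in the embryo, the placenta and mesenchymal tissue and decline after birth, and several act in opposite directions on growth through the insulin-like growth factor (IGF) pathway. The counts here do not separate the parental alleles, so they give the summed level of both.

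Counts on genes came to between 1667398 and 16402629 per library. The WT libraries 1 and 2 and all 3 Tumor libraries were the shallowest, and 3 counts, the floor used here, stood for 1.70 CPM in WT 1 and 0.177 CPM in WT 3. CPM is a count set on a common library size, here after scaling by the trimmed mean of M-values (TMM). All 10 melanocyte markers, such as Dct and Pmel, exceeded 3 counts in every library, with summed levels from 20546 to 22660 CPM in Tumor and from 19811 to 37434 CPM in culture. In the Tumor libraries all 10 fibroblast markers also exceeded 3 counts, and their summed level ran from 7707 to 10709 CPM, against 15.1 to 39.5 CPM in the cultured libraries. These values stand beside each Tumor result below, and the part of other cell types in those results was not tested. In RNA from bulk samples, fewer cells of a type and less RNA per cell cannot be told apart.

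The members fell into 5 classes by their counts. For 5 members (H19, Meg3, Rian, Grb10 and Ndn) every Tumor library exceeded 3 counts and no cultured library did, a pattern shown by 314 of the 54232 genes of the table, or 0.579%. For 4 more (Dlk1, Peg3, Slc38a4 and Gatm) at least 1 Tumor library but no cultured library exceeded 3 counts. A further 9 (Igf2r, Peg10, Mest, Plagl1, Kcnq1ot1, Gnas, Sgce, Impact and Ppp1r9a) exceeded 3 counts in all 12 libraries. Igf2, Magel2, Snrpn, Usp29 and Slc22a3 had no count anywhere. The other 10 (Cdkn1c, Mirg, Rtl1, Nnat, Zim1, Phlda2, Ascl2, Airn, Ddc and Asb4) were low or mixed. Since the members were picked for the pattern of H19, the first count is a description.

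Promoters of the members highest in Tumor over WT are shown because these genes were silent or nearly so in culture and detected together in sorted cells. RefSeq promoter windows in build GRCm38.p6, which run from 250 bases before to 50 bases after a start, were matched by symbol for 27 of the 33 members, and H19 and Cdkn1c were not among them. The windows lie at chr12:109540746-109541045 (plus strand) for Meg3, chr12:109603695-109603994 (plus strand) for Rian, chr11:12037371-12037670 (minus strand) for Grb10 and chr7:62348027-62348326 (plus strand) for Ndn. Where several were listed, the window nearest the annotated gene start was taken. It lay 5 bases from that start for Meg3 and Rian but 1263 for Grb10 and 1708 for Ndn. Capitals mark CpG, the dinucleotide at which DNA methylation is placed, and each line reads 5′ to 3′ on the strand of the gene.
Meg3: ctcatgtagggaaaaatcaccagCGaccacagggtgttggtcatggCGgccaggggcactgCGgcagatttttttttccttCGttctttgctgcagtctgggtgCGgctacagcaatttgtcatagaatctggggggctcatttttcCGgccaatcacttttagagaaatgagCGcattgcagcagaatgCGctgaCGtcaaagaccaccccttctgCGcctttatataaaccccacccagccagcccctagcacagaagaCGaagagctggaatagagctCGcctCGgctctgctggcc
Rian: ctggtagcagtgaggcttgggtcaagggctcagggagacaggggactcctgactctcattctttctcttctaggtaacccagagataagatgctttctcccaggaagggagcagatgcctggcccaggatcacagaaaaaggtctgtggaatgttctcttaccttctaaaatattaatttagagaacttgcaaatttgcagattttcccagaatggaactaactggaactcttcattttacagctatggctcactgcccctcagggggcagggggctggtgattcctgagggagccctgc
Grb10: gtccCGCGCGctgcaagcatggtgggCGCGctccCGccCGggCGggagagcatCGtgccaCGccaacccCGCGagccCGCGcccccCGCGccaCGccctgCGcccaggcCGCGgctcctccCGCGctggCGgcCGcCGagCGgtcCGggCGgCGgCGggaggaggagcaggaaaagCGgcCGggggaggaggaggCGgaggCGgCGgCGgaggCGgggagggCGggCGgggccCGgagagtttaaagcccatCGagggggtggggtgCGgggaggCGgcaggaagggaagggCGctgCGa
Ndn: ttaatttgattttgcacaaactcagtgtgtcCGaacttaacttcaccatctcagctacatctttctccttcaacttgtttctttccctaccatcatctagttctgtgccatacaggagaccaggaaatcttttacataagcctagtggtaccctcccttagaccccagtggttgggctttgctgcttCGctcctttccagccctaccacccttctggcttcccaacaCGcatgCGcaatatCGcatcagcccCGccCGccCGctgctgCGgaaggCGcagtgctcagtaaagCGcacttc

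The CpG content of these windows covered nearly the whole range of the genome. The Rian window held 0 CpG, Ndn 11, Meg3 13 and Grb10 45, against a median of 7 over the 32851 windows of the same length, and 98.1% of all windows held fewer than that of Grb10. Among members with counts in all 12 libraries, the window of Igf2r, 42 bases from the annotated start, held 34 CpG. TGCCGC, the motif bound by the imprint-protecting factor Zfp57, was searched on both strands and matched once in the Meg3 and once in the Grb10 window, and 11.6% of all windows held it. GGGCGG, the GC box, matched 5 times in Grb10, 2 times in Ndn and not in Meg3 or Rian, and 35.7% of windows held it. TATAAA matched in Meg3 alone of the 4 windows, with 1 match on each strand and the matches overlapping, and 13.6% of windows held it. GGGGCCCC (in 1.08% of windows) and the CTCF motif of the H19 control region (in 0.0365%) had no match in these 4 windows. TGCCGC and GGGCGG each contain a CpG, so they overlap the capitals above.

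H19 is a long non-coding RNA read from the maternal chromosome, host of the microRNA miR-675 and partner of Igf2 in a shared imprinted cluster. The gene (ENSMUSG00000000031) lies on the minus strand of chromosome 7, bases 142575529 to 142578143 of GRCm38. It had 0 counts in each of the 9 cultured libraries, which together held 99520218 counts on genes. In Tumor 1, 3 and 4 it had 50, 65 and 73 counts, or 16.3, 13.1 and 17.2 CPM, a mean of 15.5 ± 2.15 CPM (SD, n = 3). Every Tumor library thus stood far above every cultured library, and Tumor varied little within the group. Set against the floor of 3 counts over the cultured libraries (0.0302 CPM), the Tumor mean was at least 513-fold higher. Per kilobase of exons, H19 reached 6.30 CPM in Tumor, close to the 6.45 CPM per kilobase of Mest in the same libraries. The Mest level may include reads of a gene on the opposite strand, as given below.

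Igf2, the paternally expressed growth factor of this cluster, had 0 counts in all 12 libraries, but that zero cannot be read as absence. The last 500 exonic bases of Igf2 overlapped by 99.4% with Gm49394 on the same strand, and reads that match more than one gene are left out of such counts. Over all exonic bases of Igf2 the overlap on the same strand was 62.8%, and the other bases gave no count either. Gm49394 itself had 1 count, in WT 3. Igf2r, the maternally expressed receptor that carries IGF2 to lysosomes for breakdown, was well covered everywhere. It measured 144, 155 and 163 CPM in WT, 221, 139 and 138 CPM in ITF1, Rel and ITM, 135, 147 and 143 CPM in Lyso, and 225, 218 and 204 CPM in Tumor. Tumor lay above every WT and Lyso library, while ITF1 was as high as Tumor. The log2 difference from WT was 0.48 (SE 0.17), under the fold minimum of 1 used for calls. Airn, the antisense RNA that silences Igf2r on the paternal chromosome, stayed between 0.844 and 2.42 CPM over all libraries, with group ranges that overlapped. Part of the Airn gene lies opposite the Igf2r gene, though their exons do not overlap. Reads from opposite strands cannot be told apart here, and whether unspliced Igf2r RNA adds to the Airn counts was not tested.

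The Dlk1-Meg3 cluster of chromosome 12 was detected in Tumor mainly through its maternally expressed non-coding RNAs. Meg3 had 85, 146 and 96 counts in Tumor 1, 3 and 4, or 27.6, 29.4 and 22.6 CPM (mean 26.5 ± 3.52, SD, n = 3), and 0 counts in the 9 cultured libraries. The Tumor mean was at least 879-fold above the pooled floor. Rian, a host of small nucleolar RNAs, had 105, 78 and 89 counts in Tumor, or 34.1, 15.7 and 20.9 CPM (mean 23.6 ± 9.50), and 1 count in culture, in ITM. Its pooled Tumor level was 2200-fold that of culture, with an exact 95% counting interval from 392 to 87217. Rian varied more among Tumor libraries than Meg3, and Tumor 1 held the highest Rian but not the highest Meg3 level. Mirg, a microRNA host downstream of Rian, had 2, 3 and 2 counts in Tumor and 1 in ITF1. The protein-coding genes of the cluster, read from the paternal chromosome, were lower than Meg3 and Rian. Dlk1, a membrane protein of the Notch ligand family, had 6, 4 and 2 counts in Tumor and 1 count in Lyso 3, and the retrotransposon-derived Rtl1 had 1 count in each Tumor library. Per kilobase of exons the Tumor means were 1.47 CPM for Meg3 and 1.29 for Rian, against 0.19 for Dlk1, 0.0788 for Mirg and 0.0399 for Rtl1. Gm26906, on the strand opposite Meg3, covers 6.8% of its exonic bases and had 6, 6 and 7 counts in Tumor and 0 in culture, and reads from such pairs cannot be assigned to a strand here.

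Grb10, an adaptor protein that binds and restrains the insulin and IGF1 receptors, had 56, 81 and 69 counts in Tumor, or 18.2, 16.3 and 16.2 CPM (mean 16.9 ± 1.12, SD, n = 3). It had no count in culture, and the Tumor mean was at least 560-fold above the pooled floor. Its neighbor Ddc, which makes an aromatic amino acid decarboxylase, stayed at or below 0.706 CPM in every library. Ndn, the necdin gene of the Prader-Willi cluster and a growth suppressor in neurons, had 17, 25 and 23 counts in Tumor, or 5.53, 5.03 and 5.41 CPM (mean 5.32 ± 0.259). Ndn also had no count in culture, which placed the Tumor mean at least 176-fold above the floor. Grb10 and Ndn were the most even of these members across Tumor libraries, but counting error alone at such counts can give a spread as large. Magel2, next to Ndn, had 0 counts in all 12 libraries, as did Snrpn, for which 27.3% of exonic bases overlap other genes on the same strand.

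Cdkn1c, which encodes the cyclin-dependent kinase inhibitor p57 and is read from the maternal chromosome, differed from these members in being detectable in culture. It measured 0.566, 0.422 and 0.531 CPM in WT, 0.461, 0 and 0.120 CPM in ITF1, Rel and ITM, and 0.377, 0.373 and 0.243 CPM in Lyso. In Tumor 1, 3 and 4 it reached 2.60, 6.04 and 4.94 CPM, above every cultured library. The log2 difference was 3.13 (SE 0.65) from WT and 4.57 (SE 0.61) from the relapsed lines. The WT 1 and WT 2 values rest on 1 count each, and without WT 3 the call against WT was lost at a log2 difference of 3.22. On the strand opposite Cdkn1c, Gm44732 covers 30.7% of its exonic bases and had 4, 8 and 7 counts in Tumor. The other members of the Kcnq1 cluster did not follow it. Phlda2, a regulator of placental growth, measured 0.566 to 1.18 CPM in WT and 0 to 0.471 CPM in Tumor, on 0, 1 and 2 counts. Ascl2, a transcription factor of placental progenitors, had 2 counts in ITM and 1 in Tumor 1.

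**Figure D1:**
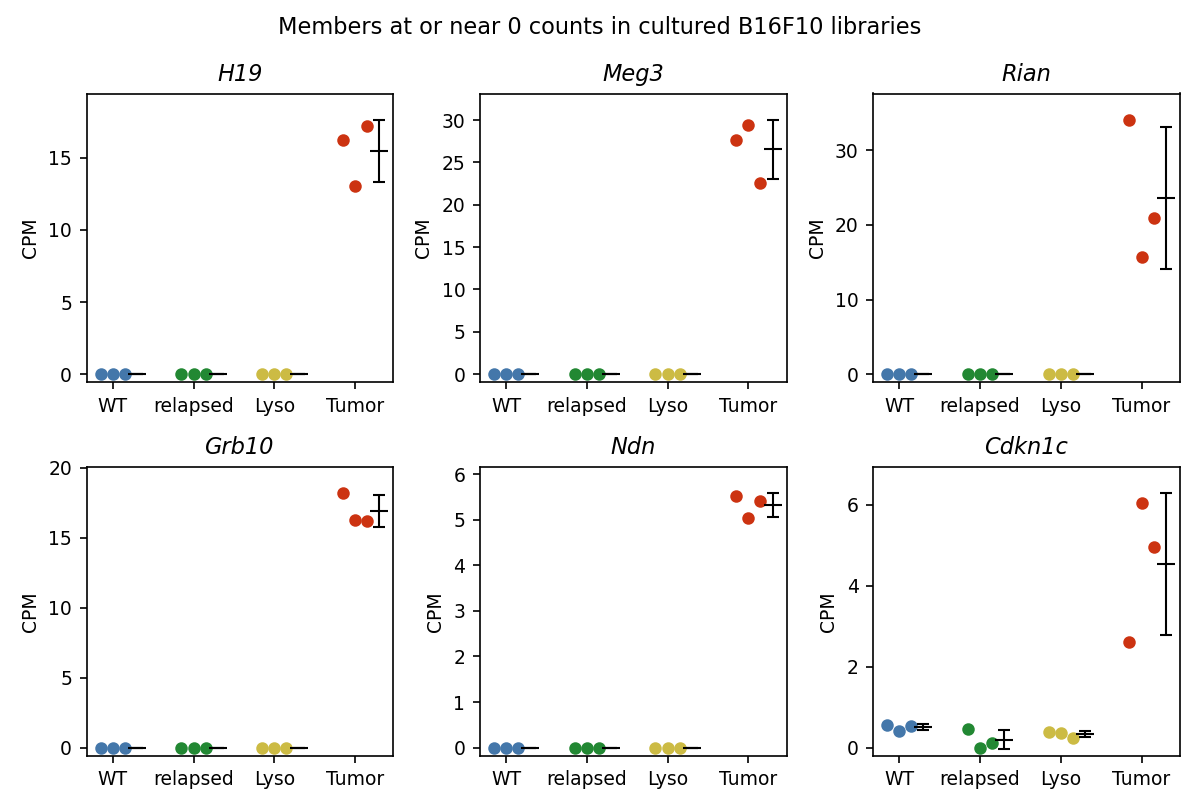
Level (CPM) of H19, Meg3, Rian, Grb10, Ndn and Cdkn1c in each library, by group, with the group mean ± SD as a black bar (n = 3). The first 5 genes sit at or next to 0 in all 9 cultured libraries, and each gene is higher in every Tumor library than in any cultured one, from 2.60 CPM for the lowest Tumor value of Cdkn1c to 34.1 CPM for the highest of Rian.

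Among members with few counts in Tumor, Slc38a4, an amino acid transporter, had 9, 7 and 2 counts and none in culture. Peg3, a zinc finger protein read from the paternal chromosome, had 0, 5 and 13 counts in Tumor 1, 3 and 4 and none in culture. Gatm, an enzyme of creatine synthesis, had 1, 4 and 6 counts in Tumor and 1 count in Lyso 1. These levels, with Tumor means of 0.847 to 1.60 CPM, lie under the 3-count floor of WT 1, so WT 1 alone could not show them. Over the pooled cultured libraries the Tumor mean was at least 53-fold higher for Slc38a4 and at least 44-fold higher for Peg3, a value that rests on 2 of the 3 Tumor libraries. The neighbors of Peg3 were lower, with 1, 0 and 3 counts of the maternally expressed Zim1 in Tumor and none of Usp29. Asb4 had at most 9 counts in any library.

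**Figure D2:**
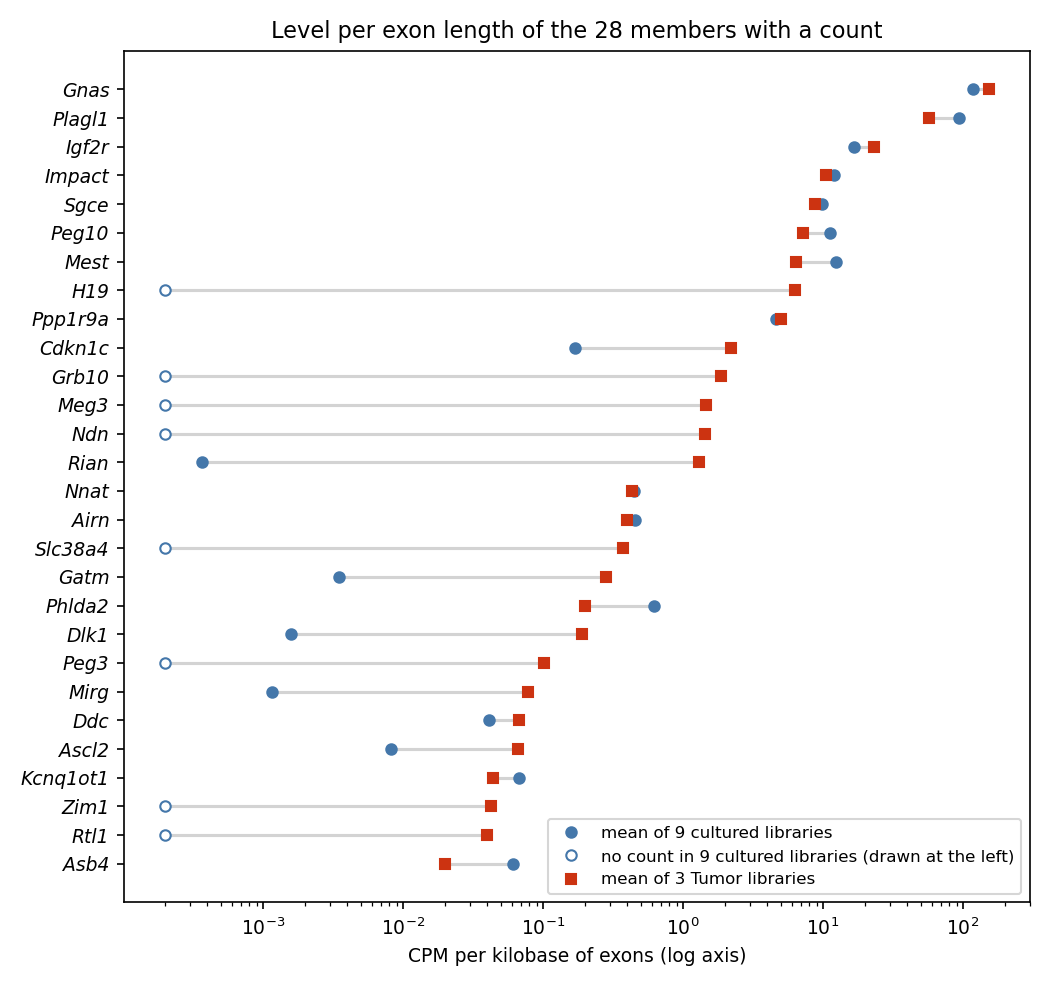
Mean level per kilobase of exons (CPM per kilobase, log axis) of the 28 members with any count, in the 9 cultured libraries (circles, open where there was no count) and the 3 Tumor libraries (squares), ordered by the Tumor mean. Gnas and Plagl1 lead in both settings, whereas H19 moves from no count to 6.30 CPM per kilobase.

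Of the 33 members, 17 passed the filter on low counts and were tested in the fit of all genes. A further point limits what the Tumor counts can show, because 6 of the 17 passed only with the Tumor libraries, and those had to differ. Calls needed an adjusted p below 0.05 together with a log2 difference beyond 1 in either direction (edgeR's quasi-likelihood test, Benjamini-Hochberg adjustment over all 14924 genes tested). In Tumor against WT, 6 members were called higher, namely H19, Meg3, Rian, Grb10, Ndn and Cdkn1c, where 8.56% of all genes tested were called higher. These are the 6 that passed through Tumor alone, and H19 chose the group, so nothing is read from this count or from its size beside the share of all genes. No member was called lower in Tumor than in WT, where 2.2% of all genes were. In Tumor against the relapsed lines, the same 6 were called higher (8.36% of all genes) and 1 member, Mest, was called lower (2.31% of all genes). Both comparisons share the Tumor libraries. The 11 members that passed the filter without Tumor had a median log2 difference of -0.22 from WT, within a range from -0.74 to 0.52, where the median of all genes was 0.00. Against the relapsed lines their median was -0.25 and the range ran from -1.26 to 0.38, beside -0.01 for all genes.

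Mest, a paternally expressed gene of the hydrolase family, measured 43.0, 21.5 and 50.6 CPM in WT and 34.2, 46.9 and 103 CPM in ITF1, Rel and ITM. In Lyso it measured 48.5, 48.2 and 46.6 CPM, and in Tumor 20.2, 31.2 and 25.0 CPM. Every Tumor library lay below every relapsed line and every Lyso library, but within reach of WT 2. The log2 difference from the relapsed lines was -1.26 (SE 0.37), and that from WT was -0.62 (SE 0.39). ITM was the highest library, and without it the difference from the relapsed lines was -0.67 and the call was lost. The call was also lost without Tumor 1 (-1.13), Tumor 3 (-1.45) or Tumor 4 (-1.24). The Copg2 gene lies opposite 23.1% of the exonic bases of Mest and had more counts than Mest in every library, from 302 in WT 1 to 2908 in WT 3. In Tumor 1, 3 and 4 it had 529, 863 and 738. Reads from opposite strands cannot be told apart here, so part of the Mest level may belong to Copg2, which was not tested.

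Plagl1, a paternally expressed zinc finger transcription factor that regulates other imprinted genes, was the second most abundant member per kilobase after Gnas. It measured 716, 572 and 715 CPM in WT, 754, 918 and 633 CPM in ITF1, Rel and ITM, 899, 669 and 690 CPM in Lyso, and 449, 426 and 479 CPM in Tumor. All 3 Tumor libraries lay below all 9 cultured ones. The log2 difference was -0.57 (SE 0.17) from WT and -0.77 (SE 0.17) from the relapsed lines, under the fold minimum in both. Peg10, derived from a retrotransposon and needed in the placenta, measured 37.4, 103 and 95 CPM in WT, 63.4, 31.8 and 117 CPM in the lines, and 48.4, 53.1 and 41.7 CPM in Tumor, which thus overlapped both groups. Its difference from the relapsed lines was -0.57 (SE 0.40) and was 0.003 without ITM.

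Gnas, which encodes the stimulatory G protein alpha subunit, measured 1215, 1229 and 1125 CPM in WT and 1648, 1635 and 1834 CPM in Tumor, which did not overlap. The log2 difference from WT was 0.52 (SE 0.13), and that from the relapsed lines, at 1339 to 1620 CPM, was 0.18 (SE 0.13). Gm20721 lies on the opposite strand of Gnas, where 22.0% of the exonic bases of Gnas face another gene, and it had 1986 to 22692 counts per library. Counts from opposite strands could not be told apart in this table, since the coverage of 25 genes lying opposite abundant ones was a median of 1.07 times that of the abundant gene. Sgce and Ppp1r9a, the neighbors of Peg10 that encode epsilon-sarcoglycan and neurabin, ranged from 85.6 to 137 CPM and from 48.1 to 95.7 CPM over all libraries. Impact, an inhibitor of the stress kinase GCN2, ranged from 45.4 to 82.1 CPM. For Sgce and Ppp1r9a the Tumor libraries lay within the range of the cultured ones, while Impact in Tumor 3 (50.3 CPM) and Tumor 4 fell just below the lowest cultured value of 50.4 CPM, in ITF1. Nnat, a small membrane protein of neurons, stayed between 0.422 and 1.79 CPM.

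**Figure D3:**
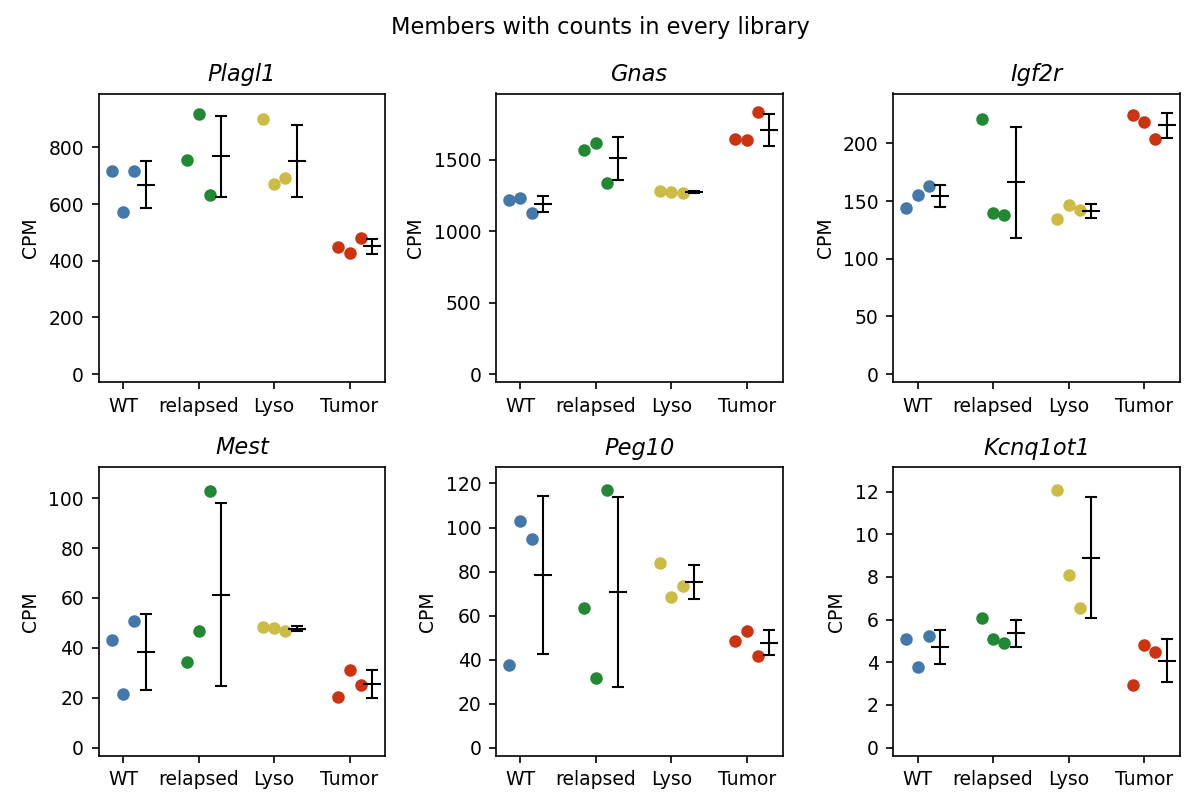
Level (CPM) of Plagl1, Gnas, Igf2r, Mest, Peg10 and Kcnq1ot1 in each library, by group, with the group mean ± SD as a black bar (n = 3). Plagl1 in Tumor (426 to 479 CPM) lies below all cultured libraries, while Peg10 in Tumor lies inside the range of WT and the relapsed lines.

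The comparisons among cultured cells rest on the 11 members that passed the filter without Tumor and on Cdkn1c, since H19, Meg3, Rian, Grb10 and Ndn had at most 1 count in these libraries and could not be called. In the relapsed lines against WT, 0 of these members were called higher and 0 lower by edgeR, where 0.0134% and 0.0268% of all genes were, and DESeq2 also called 0. At an unadjusted p under 0.05 there was 1 member by edgeR, where 11% of all genes were, and the smallest adjusted p of any member was 0.358, that of Gnas, with a log2 difference of 0.34 (SE 0.13). Mest differed by 0.64 (SE 0.36) on the log2 scale, with an edgeR adjusted p of 0.553. The 11 members that did not need Tumor to be tested had a median log2 difference of 0.10, between -0.18 and 0.64, beside 0.01 for all genes. The 9 members above 3 counts in Tumor and in no cultured library had at most 1 count in any of the 3 lines, which were themselves sorted from relapsed tumors before culture.

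In Lyso against WT, 0 members were called higher and 0 lower by edgeR, where 2.43% and 0.576% of all genes were, and DESeq2 called 0 as well. Kcnq1ot1, the paternally expressed non-coding RNA that silences the Kcnq1 cluster, was the only member with an unadjusted p under 0.05 by edgeR, where 18.7% of all genes were. It measured 5.09, 3.80 and 5.25 CPM in WT and 12.1, 8.10 and 6.56 CPM in Lyso, so that all Lyso libraries lay above all WT libraries. The log2 difference was 0.88 (SE 0.28) with an edgeR adjusted p of 0.104, which did not pass. The median of the 11 members was -0.07, between -0.31 and 0.88, and that of all genes was 0.00 to 2 decimals.

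**Figure D4:**
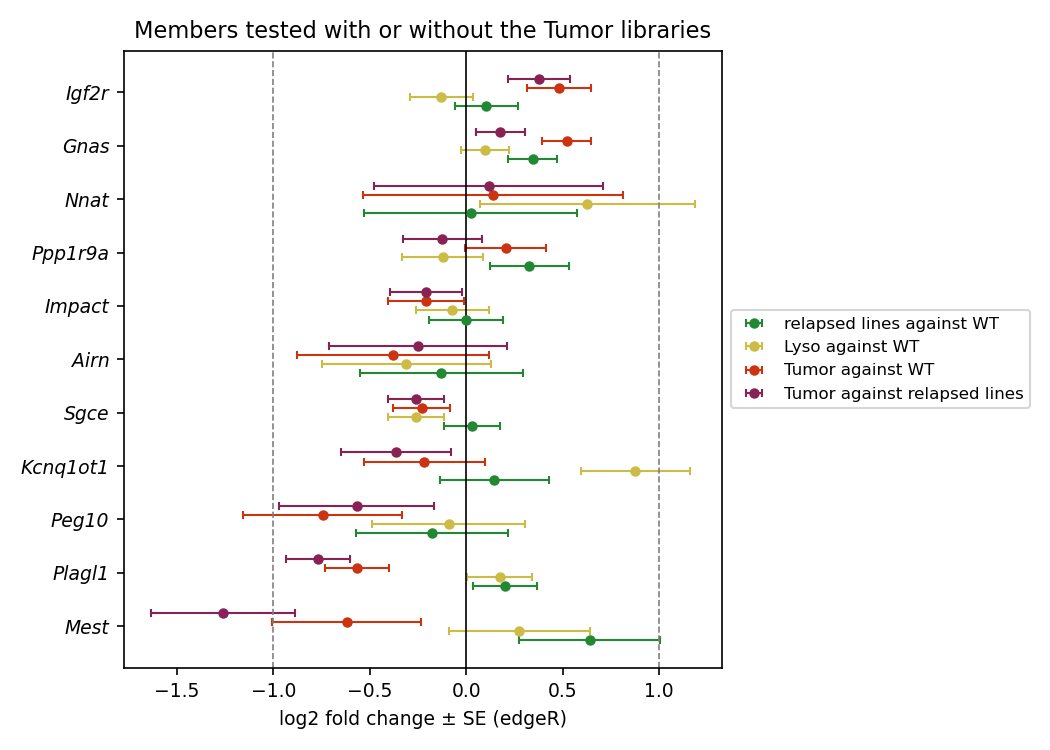
log2 fold change ± SE (edgeR) in 4 comparisons for the 11 members that pass the filter on low counts without the Tumor libraries. Dashed lines mark the fold minimum for a call, which Mest passes in Tumor against the relapsed lines (-1.26), while all other points lie between them.

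Other imprinted genes, from a list of 50 that excludes the 33, gave 5 called higher and 1 lower in Tumor against WT among 31 tested, with a median log2 difference of -0.11, which was -0.11 also with genes at 0 in WT set at their bound, and the medians of the next 2 lists did not move either. Over all genes the shares were the 8.56% and 2.2% given above. All 5 higher genes passed the filter only through Tumor and so had to differ, hence no p is given for them, and none of the 26 genes that passed without Tumor was called higher. The 4 with the smallest p were Dcn, Tfpi2, Atp10a and Htr2a, and the lower gene was Slc22a18. Dcn, the collagen-binding proteoglycan decorin, is also among the fibroblast markers. It had 1 count over the 3 WT libraries together and 271, 300 and 286 CPM in Tumor 1, 3 and 4. Tfpi2, a protease inhibitor, had 1 count in WT and 4.94 to 6.18 CPM in Tumor. Atp10a, a phospholipid flippase, had 0 counts in WT and 3.42 to 4.23 CPM in Tumor. Htr2a, a serotonin receptor, had 2 counts in WT and 1.81 to 5.53 CPM in Tumor. Slc22a18, a transporter of the Kcnq1 cluster, fell from a WT range of 17.3 to 25.7 CPM to a Tumor range of 5.03 to 8.0 CPM, a log2 difference of -1.78 (SE 0.33, edgeR adjusted p = 0.00225). In Lyso against WT, 0 were higher and 1 lower, Jade1, at -1.07 (SE 0.21, edgeR adjusted p = 0.0109), a call that was lost without WT 3, Lyso 1 or Lyso 2. None was called in the relapsed lines against WT.

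Of 19 genes that set or keep imprints, 16 were tested, and 2 were called higher and 0 lower in Tumor against WT, with a list median of 0.08, beside the 8.56% and 2.2% of all genes. All 16 passed the filter without Tumor. Dnmt3a, a de novo DNA methyltransferase, rose from a WT range of 42.2 to 61.1 CPM to a Tumor range of 114 to 137 CPM, a log2 difference of 1.28 (SE 0.15, edgeR adjusted p = 7.52e-05). Tet1, which oxidizes methylcytosine, differed by 1.62 (SE 0.53, edgeR adjusted p = 0.0494), and its call was lost without any one of the 6 libraries of the comparison, with values from 1.38 to 2.18. No gene of this list was called in the other 3 comparisons. In Tumor against the relapsed lines, 2 genes missed the call by the fold minimum alone. Dnmt3a differed by 0.88 (SE 0.14, edgeR adjusted p = 0.000637) and Tet3, also an oxidase of methylcytosine, by 0.98 (SE 0.17, edgeR adjusted p = 0.00147). In the IGF pathway, 15 of 17 genes were tested, and 7 were called higher and 1 lower in Tumor against WT, with a list median of 0.73, beside the same shares of all genes. Igf1, Igfbp3 and Igfbp5 passed the filter only through Tumor and so had to differ, and of the 12 that passed without it 4 were called higher and 1 lower. The shares of all genes include genes that passed only through Tumor. They are therefore not a matched background for counts of genes that passed without it, in this list or the 2 before. Those with the smallest p were the binding proteins Igfbp7, at 45.5 to 71.5 CPM in Tumor against 0 to 1.42 CPM in WT (edgeR adjusted p = 3.63e-07), Igfbp3, at 15.8 to 25.7 CPM against 1 WT count, and Igfbp5, at 30.2 to 96.0 CPM against 2 WT counts. Irs2, an adaptor of the insulin receptor, rose by 3.13 on the log2 scale (SE 0.36, edgeR adjusted p = 7.16e-05). Igf2bp1 encodes a protein that binds the messenger RNA of Igf2 and the non-coding RNA H19. It differed by -1.79 in Tumor (SE 0.33, edgeR adjusted p = 0.00239) and by -1.65 in Lyso (SE 0.31, edgeR adjusted p = 0.00804), each against WT. The call in Lyso was lost with control libraries of similar depth. The list held no call in the relapsed lines against WT.

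Marker genes of other cell types were measured in the same libraries. The calls below are for Tumor against WT, where 8.56% of all genes tested were called higher. All 10 fibroblast markers were called higher in Tumor than in WT, with 10708.7, 8744.7 and 7706.9 CPM in Tumor 1, 3 and 4. Of 8 endothelial and pericyte markers 6 were called higher, with sums from 28.2 to 45.3 CPM in Tumor and from 3.46 to 11.8 CPM in culture. Of 6 adipocyte markers 2 were (Lpl and Fabp4), with 23.3 to 43.8 CPM in Tumor and 0 to 1.30 CPM in culture, and Plin1 was at 0 in Tumor. Of 10 leukocyte markers 3 were (Lyz2, Adgre1 and Ptprc), at 37.7 to 62.6 CPM in Tumor and 12.5 to 46.8 CPM in culture, with Cd3e at 0 in Tumor. Of 10 skeletal muscle markers 1 (Ckm) was, the sums of 9.06 to 11.1 CPM in Tumor lay inside the cultured range of 4.19 to 18.1 CPM, and Myod1, Myf5, Pax7 and Myog, which define the lineage, had 0 counts in all libraries. The 6 keratinocyte markers were too low to be tested and summed to at most 1.41 CPM. Of these genes, the markers called in the endothelial and pericyte, adipocyte and skeletal muscle lists, 4 of the 10 fibroblast markers and Adgre1 passed the filter only through Tumor, so their calls had to follow.

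**Figure D5:**
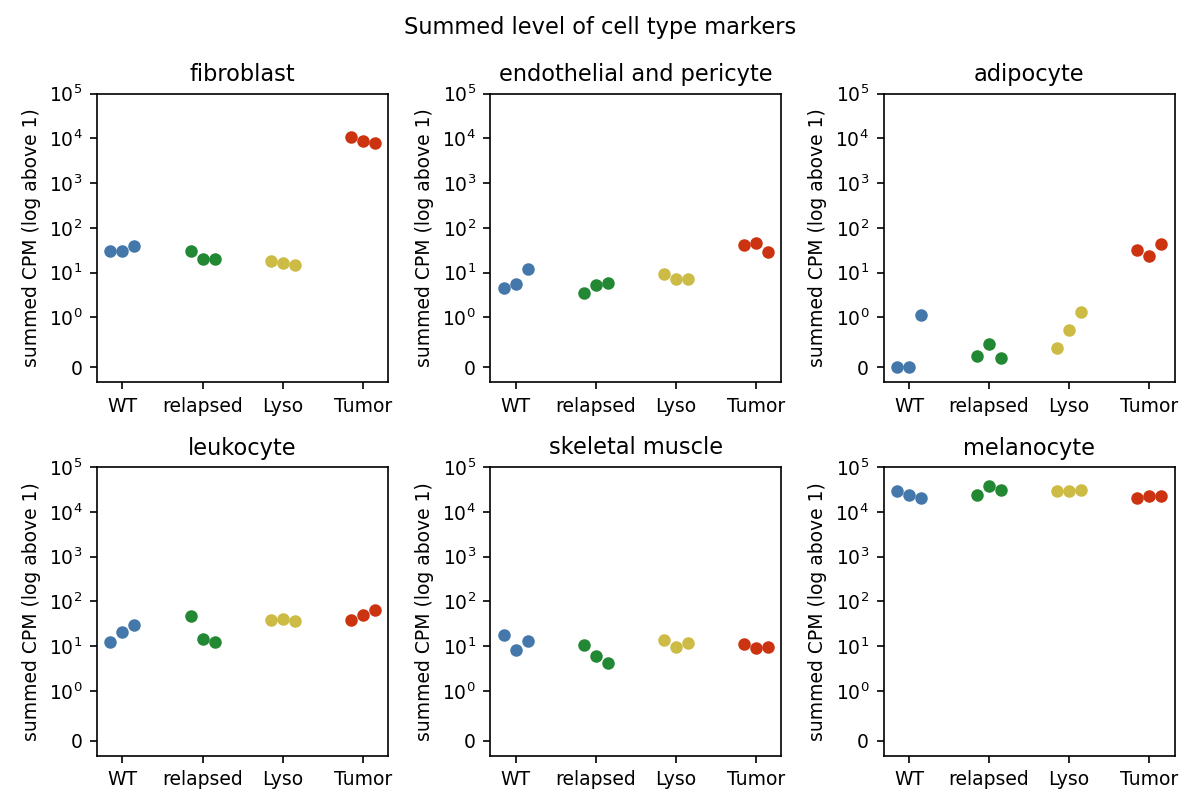
Summed level (CPM, log axis above 1) of 6 marker lists in each library, by group. The fibroblast sum lies between 7707 and 10709 CPM in Tumor and at 39.5 CPM or less in all cultured libraries, while the melanocyte sum is of similar size in all 4 groups.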

How the data were processed

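RNA was measured in 12 libraries in 4 groups of 3. The authors deposited raw read counts per gene, one column per library and not normalized. According to the submitters' processing notes and the methods of the study, fastp 0.19.6 trimmed adaptors, STAR 2.7.1a aligned reads to GRCm38 and DESeq2 1.24.0 tested the counts. The strand setting and annotation release are not given in the sources used here, so gene positions were taken from GENCODE vM21. Reads on several genes (0.8% to 1.0% ambiguous, 11.3% to 14.9% at several positions) and the 43.5% to 44.8% on no feature were left out of library sizes, which left 36.2% to 39.4% on genes.

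The members and lists were chosen with earlier results of these data known. The quasi-likelihood test of edgeR 4.0.16 (R 4.3.3, TMM scaling, filterByExpr) was run over all 12 libraries and 14924 genes, with Benjamini-Hochberg adjustment. SE was taken as the estimated log2 difference divided by the root of its F statistic. The filter asked for 10 counts at the median depth (0.901 CPM) in 3 libraries. Other steps used Python 3.11.15. The fit was tested on simulated data. H19 and each called member were named with their values in every library, other members by their ranges, and of each further list at most 4 genes with the smallest p plus genes named for a lower call. Folds against 0 counts used the floor of 3 counts over all cultured libraries. Intervals and floors cover counting error only. Alternatives were DESeq2 1.42.0, RLE size factors, library size only, no filter, only the groups compared, a replicate block, each library left out, the adjusted p alone, and control libraries of similar depth.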

Additional observations from a re-analysis of the deposited data

How the results depend on the processing

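The count of members called higher in Tumor was 6 against WT and 6 against the relapsed lines. With each library left out it was 5 to 7 and 6 to 8, where Cdkn1c left the calls against WT without WT 3 and Slc38a4 or Peg3 entered in other fits. Without the filter on low counts, which tests more members, it was 11 and 12. As these genes passed the filter only through Tumor, the counts say nothing of stability. With the adjusted p alone, 7 members instead of 6 were higher in Tumor than in WT (Gnas entering), 1 (Plagl1) instead of 0 was lower, and 2 instead of 1 (Mest and Plagl1) were lower than in the relapsed lines. The 1 member lower than the relapsed lines, Mest, became 0 in a fit of only the groups compared and 0 to 1 with each library left out. No member was called in the relapsed lines or Lyso against WT under any alternative. The difference of Peg10 between Tumor and the relapsed lines was -0.57, and -0.924 to 0.003 with each library left out, turning without ITM, and the cause of these changes was not tested. Calls over all genes moved more. The relapsed lines against WT gave 2 higher and 4 lower genes, but 48 and 54 with DESeq2, 139 and 126 without the filter, 0 and 0 with only the groups compared, 2 and 8 with controls of similar depth, and 0 to 78 and 0 to 42 with a library left out. Lyso against WT gave 362 and 86, but 567 and 262 without the filter, 136 and 48 with controls of similar depth, and 236 to 382 and 30 to 131 with a library left out. Tumor against WT gave 1278 and 329, with 926 and 207 for controls of similar depth and 954 to 1559 and 211 to 408 with a library left out, and Tumor against the relapsed lines gave 1247 and 344, with 1798 and 519 without the filter. For replicate numbers shared by WT, Lyso and Tumor, deviations of same-numbered libraries correlated at -0.007 to 0.065. Those of differently numbered libraries correlated at -0.053 to 0.059. With 3 libraries per group of unequal depth, this check showed no pairing but could not exclude it. With the replicate number as a block, Tumor against WT still gave 6 members higher and 0 lower, and Lyso against WT gave 0 and 0, while the count of all genes called in Tumor against WT became 987 higher and 204 lower. WT 1 and WT 2 limit the depth at which absence in WT can be judged.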
